A study of Mus musculus with 234 samples.

Results

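The genes described here are 10 transcripts that in heart tissue mark macrophages: the complement chains C1qa, C1qb and C1qc, the secreted proteins Lyz2 and Pf4, the surface receptors Csf1r, Sirpa and Fcrls, and the signalling and lysosomal proteins Tyrobp and Laptm5. They were chosen by symbol, because their counts had been seen in wells of dim cardiomyocytes (CMs), and all 10 were found, each once, among the 55538 features of the deposited count matrix. The matrix holds single CMs, isolated from 5 mice by Langendorff perfusion, picked by hand and sequenced with SMART-seq2, a full-length method without molecular identifiers. The questions put to these genes were in which wells they were read, and whether they were read together.

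Control wells came from the mice M26 (24 wells) and M73 (9 wells), given in the labels as wt, control and strain C57BL/6. The study's methods define controls more widely, as siblings of the homozygous mice that were WT or carried PGK-Cre or the floxed transgene alone, on a mixed 129S6/SvEvTac, C57BL/6Ncr and CD-1 background. Homozygous PGKcre:BAG3P209L mice, which carry human BAG3 with the P209L change fused to eGFP behind a CAG promoter and switched on by a PGK-driven Cre, were M25 (21 bright and 18 dim wells) and M116 (59 bright and 50 dim wells). M72 was heterozygous (27 bright and 26 dim wells). The transgenic line goes back to 1 embryonic stem cell clone, the mice were 2 weeks old where an age is given (none is given for M72), and bright or dim is the eGFP signal seen when a cell was picked. M25 and M26 shared a plate, as did M72 and M73, while M116 filled another 2 plates of the latter series. Homozygous dim wells and control wells therefore met on a plate only for M25 and M26.

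Macrophages live in the heart between the CMs from before birth. Growth factor signals through the receptor Csf1r keep them alive, C1q made by tissue macrophages starts the classical complement pathway and tags debris for uptake, and Tyrobp is the adaptor by which several of their surface receptors signal. CMs themselves are not known for C1q, lysozyme or Csf1r expression, whereas SIRPA is in use as a surface marker of human CMs derived from stem cells.

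Totals per well ran from 487 to 1392253 counts (median 711527), and 15 wells held fewer than 1000 features. The 12 CM markers (Myh6, Tnnt2, Ttn, Ryr2 and 8 others) were all detected in 230 wells. The bright wells B2, C8 and E1 of M25 stood apart, with CM markers summing to 1494 to 5099 CPM (counts scaled to the library total) against at least 49828 in every other well, and they held 4 member counts in all. The transgene summed to 514 and 456 CPM in the homozygous bright wells of M25 and M116, to 18.2 and 197 CPM in their dim wells and to 0.460 and 0.488 CPM in the control mice. In M72 the order went against the labels, with 167 CPM in the wells labelled bright and 460 CPM in those labelled dim. All pairs of index sequences were distinct, so no library shared its barcode pair with another.

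The RefSeq promoter table (GRCm38.p6) held 6 of the 10 members, and the stretches below are shown because 5 of these promoters carry the same word before the start site. Searched on both strands was AGGAAGT, the core of the site bound by the myeloid factor PU.1 and its ETS relatives, chosen after the sequences had been seen. It occurred in 5 of 6 member promoters, against 9.35% of all 32851 promoters of the same 300 bases and 10 of the 32 promoters found for 26 other macrophage genes. Capitals mark the word, here always read on the opposite strand as ACTTCCT, and each stretch runs 5′ to 3′ on the gene's strand and ends at or before the start site.
C1qb promoter, chr4:136886201-136886313, minus strand: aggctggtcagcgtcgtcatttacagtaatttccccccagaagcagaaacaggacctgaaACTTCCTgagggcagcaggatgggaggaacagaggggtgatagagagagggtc
C1qc promoter, chr4:136893043-136893164, minus strand: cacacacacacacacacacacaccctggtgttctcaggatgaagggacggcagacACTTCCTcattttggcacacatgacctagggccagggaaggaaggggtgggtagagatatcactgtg
Lyz2 promoter, chr10:117282306-117282432, minus strand: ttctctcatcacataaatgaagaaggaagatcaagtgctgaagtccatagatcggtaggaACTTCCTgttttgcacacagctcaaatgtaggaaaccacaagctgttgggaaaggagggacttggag
Pf4 promoter, chr5:90772365-90772434, plus strand: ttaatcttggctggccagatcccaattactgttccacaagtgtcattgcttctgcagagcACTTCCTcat
Fcrls promoter, chr3:87263533-87263659, minus strand: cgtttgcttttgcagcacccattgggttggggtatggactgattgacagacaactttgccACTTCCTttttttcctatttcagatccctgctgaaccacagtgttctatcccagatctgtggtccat
The Laptm5 promoter did not hold these letters in its window. C1qb and C1qc lie close together on chromosome 4, on the same strand. C1qa, Csf1r, Tyrobp and Sirpa were not among the promoters used here. A match describes the letters only, and no factor binding was measured in these cells.

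The members were read in very few wells and then together. Over all wells, 169 had no count of any member, 54 had 1 member, 3 had 2 and 2 had 3. No well had 4, 5 or 6 members, and 6 wells had 7 or more. Those 6 wells held 5815 of the 5965 counts of the 9 members other than Sirpa (97.5%). Of the 6, 4 were homozygous dim wells and held 86.4%: B8, C7 and D6 of M116 and G6 of M25. The 2 plates of M116 repeat some well names: B8 here is from plate GL9989-2, and C7 and D6 are from plate GL9989-3. The fifth was the well D4 of M72, labelled bright, and the sixth the control well D11 of M73. This split holds for detection at 1 count. With detection at 10 counts, B8 and G6 held 10 members each, C7 7, D4 and D6 6 each, and D11 1. By the labels, dim wells thus made up 4 of the 6 wells, and 4 of the 68 homozygous dim wells and 0 of the 26 dim wells of M72 were among them. The transgene order in M72 went against its labels, and D4 held 1 transgene count. Without M72, 4 of 5 wells were dim, and with its bright and dim labels exchanged 5 of 6 would be, settings added after the values were seen. Both settings turn on the single well D4. The members had been chosen for counts seen in dim wells, which favours dim wells among the 6 and joint reading there. Nothing about dim wells is therefore read from these shares of wells and counts.

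**Figure D1:**
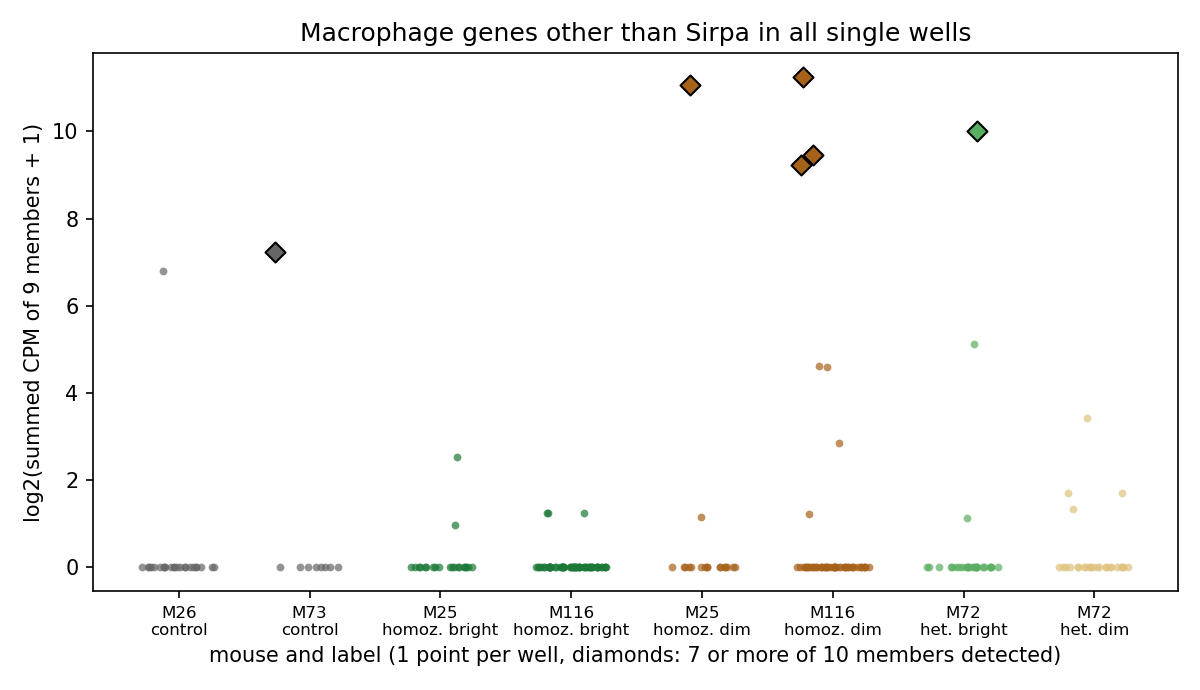
Summed level of the 9 members other than Sirpa in each well, as log2(CPM + 1), by mouse and label. Diamonds are the 6 wells with 7 or more of 10 members detected, which sit above every other well, while most wells lie at 0.

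The share of wells with at least 3 members was 5.56% in M25 dim (1 of 18) and 6.00% in M116 dim (3 of 50), or 5.78% ± 0.314 (SD, n = 2 mice). Control mice gave 4.17% (1 of 24) and 11.1% (1 of 9), or 7.64% ± 4.91 (SD, n = 2 mice). Homozygous bright wells gave 0 of 21 in M25 and 0 of 59 in M116. The exact Clopper-Pearson 95% intervals reach up to 16.1% and 6.06%. In M72 the share was 7.41% of wells labelled bright (2 of 27, same interval 0.910% to 24.3%). It was 0 of 26 of those labelled dim, where the interval reaches up to 13.2%. The dim and control shares overlapped. With detection set at 10 counts no control well remained (0% in both mice) while all 4 dim wells did. After thinning each well to 100000 counts, with 20 shallower wells left out, the shares were 5.56% and 6.25% in dim wells and 5.0% and 12.5% in control wells. With 2 mice a group, the smallest exact two-sided permutation p is 0.333, and no test of the shares was made. Such intervals and limits cover counting error only.

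C1qa, C1qb and C1qc, whose chains join into the recognition molecule of the classical complement pathway, were read together in the 6 wells. All 3 had counts in each of the 6 wells and in no well elsewhere did any pair of them meet. Counts of C1qa were 222 in B8, 238 in G6, 164 in D4, 33 in D6, 45 in C7 and 8 in D11. For C1qb they were 257, 284, 83, 158, 31 and 36 in the same order, and for C1qc 228, 300, 213, 22, 42 and 5. The chains therefore kept near-equal counts in B8 and G6 and not in D6, where C1qb was the highest of them. Per length of exon (RPKM, reads scaled to exon length and library total, on the joined exons of GENCODE vM21), C1qa, C1qb and C1qc stood at 305, 337 and 169 in B8 and at 32.6, 149 and 11.7 in D6. Elsewhere C1qb reached 8 counts in the control well E12 of M26 and C1qa 6 counts in the well C8 of M72, and the remaining wells with a C1q chain had 1 count each.

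Lyz2, the lysozyme of macrophages and neutrophils, was the most abundant member per length in B8, G6 and C7, at 483 RPKM in B8 and 391 RPKM in G6. Its counts were 445 in B8, 538 in G6, 133 in C7, 68 in D4 and 3 in D11, and it was at 0 in D6. It also reached 28 counts in control well E12. Lyz1, its near-identical neighbour, was at 0 in all wells, so no read of the pair was counted to it. Pf4, a chemokine stored in platelets and also made by tissue macrophages, had 136 counts in B8, 249 in G6, 191 in D6, 51 in D4, 44 in C7 and 2 in D11. It was the leading member per length in D6, at 272 RPKM. The platelet chemokine Ppbp, found in only 3 wells of the series, was in 3 of these wells too, with 47 counts in G6, 18 in D4 and 13 in D6. The part of platelets in the Pf4 counts was not tested.

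Csf1r, the receptor for the macrophage growth factors Csf1 and Il34, separated the wells more sharply. It had 244 counts in B8, 209 in G6 and 134 in C7, but 2 in D4, 2 in D6 and 1 in D11. Fcrls, an Fc-receptor-like protein best known from microglia, had 49, 259 and 93 counts in the same B8, G6 and C7 and was at 0 in D4, D6 and D11. Outside the 6 wells Fcrls had 1 count. Tyrobp was read in B8 (61 counts), G6 (73) and D4 (18), was at 0 in C7, D6 and D11, and had 56 counts in control well E12, which with D11 made up the control wells with 3 or more members. Laptm5, a lysosomal membrane protein of blood-lineage cells, had 283 counts in D6, 95 in G6, 52 in B8, 4 in D4, 4 in C7 and 3 in D11. B8 and G6 thus held all 10 members at 49 or more counts each, and the other 4 wells held partial sets that differed from one another.

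**Figure D2:**
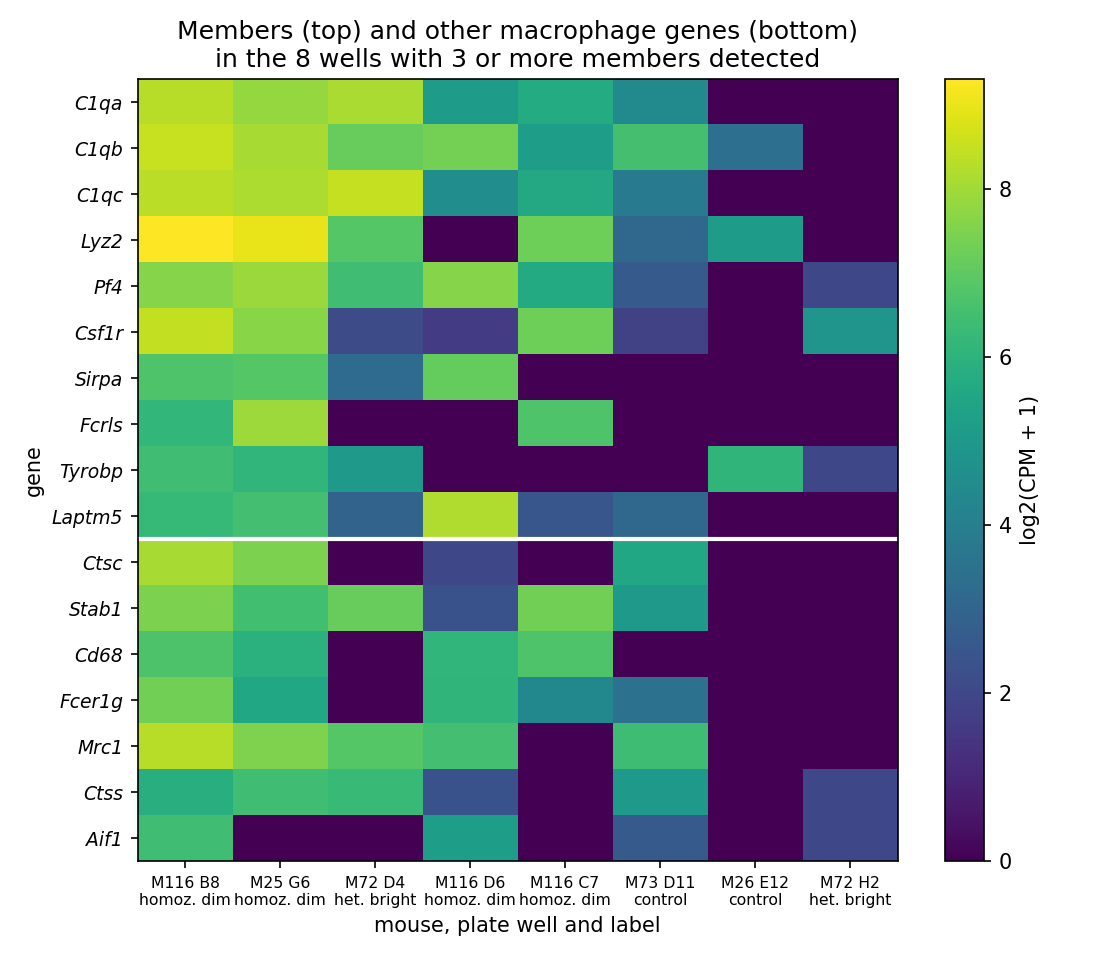
Level of the 10 members (above the white line) and of 7 other macrophage genes with counts in the 6 wells (below it), as log2(CPM + 1), in the 8 wells with 3 or more members detected, ordered by summed member CPM. B8 and G6 are filled for all 10 members, D4, D6, C7 and D11 in part, and E12 and H2 in 3 rows of the upper block each.

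Without Sirpa the members form 36 pairs, which met in 2 to 7 wells (median 5). Only 6 of these pairs met outside the 6 wells, each in 1 well, all in E12 or H2. The well H2 of M72, labelled bright, held 9 counts of Csf1r and 1 each of Pf4 and Tyrobp, and globin and other red cell genes summed to 31478 CPM there. E12 held Tyrobp, Lyz2 and C1qb.

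All 6 wells were also CM libraries. CM markers summed to 63596 to 108466 CPM in them, with all 12 detected in each, and totals ran from 385935 to 1044245 counts. In B8, 74965 CPM of CM markers lay within the 56950 to 111870 CPM of the other dim wells of M116, 5 of 49 of which were lower. In G6, 100032 CPM stood above 10 and below 7 of the other 17 dim wells of M25. D6 had the highest total and feature number (7479) of its mouse and label. Its 63596 CPM of CM markers stood above 3 of the 49 other wells. D4, at 95396 CPM, stood above 4 of 26 other wells of its mouse and label, C7 above 29 of 49 and D11 above 5 of 8. Against this, the members summed to 2527 CPM in B8, 2264 in G6, 1036 in D4, 847 in D6, 604 in C7 and 150 in D11. Each of these wells was thus read at CM level and at the same time for macrophage genes. Cells were picked by hand, no doublet caller was run, and the number of cells per well was not tested.

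**Figure D3:**
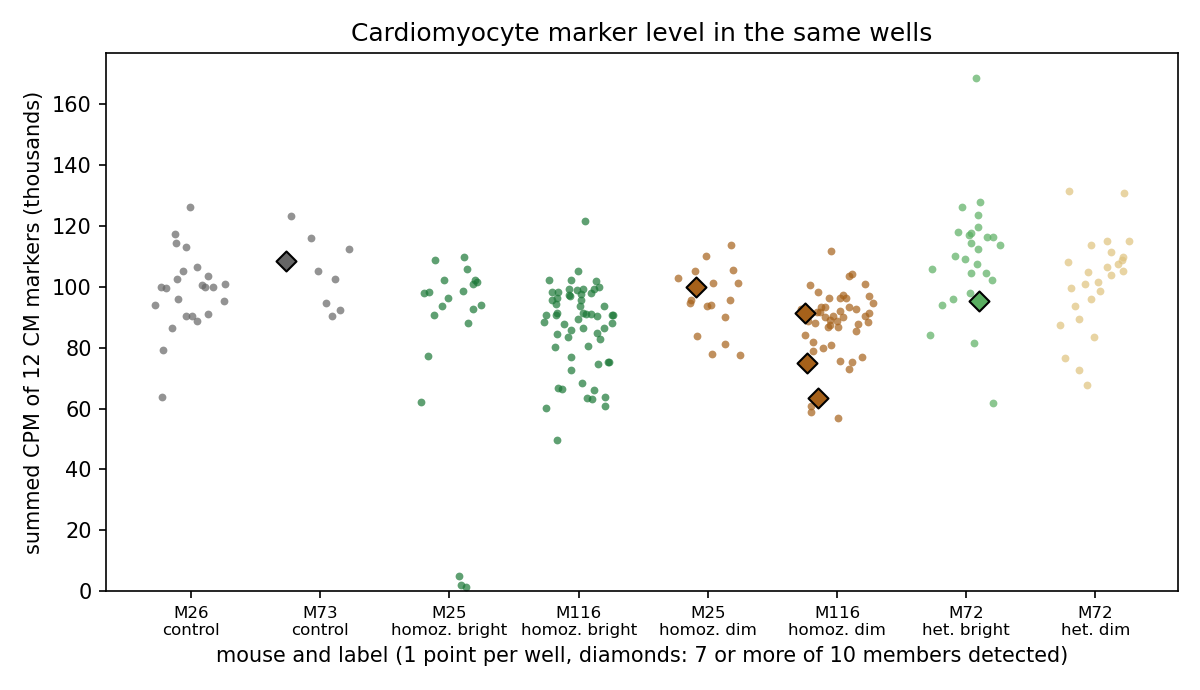
Summed CPM of the 12 CM markers, in units of 1000, in each well by mouse and label. The diamonds, the 6 wells with 7 or more members, lie among the other wells of their label at 63596 to 108466 CPM, and the 3 points near 0 are bright wells of M25.

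Most other macrophage genes were also found in the 6 wells, though some had most of their counts elsewhere. Of a list of 32, 30 were detected in some well and 29 in the 6 wells, with 20 in B8, 17 in G6, 14 in D11, 13 in D6, 11 in D4 and 6 in C7. Elsewhere at most 5 were detected in a well (median 0 over the 203 wells left after also setting aside 25 wells of Sirpa alone). The mannose receptor Mrc1 had 222 counts in B8, 188 in G6, 90 in D6, 68 in D4 and 33 in D11, and 94.2% of all its counts lay in the 6 wells. Fcer1g, an adaptor like Tyrobp, had 89.2% of its counts there and the protease Ctss 74.5%. Cd68, a lysosomal glycoprotein, had 62.0% and was found in 21 wells, and the scavenger receptor Stab1 41.9% in 30 wells. Aif1 had 97.0% of 100 counts there, in 3 wells. Ctsc, another protease, was found in 44 wells with 29.1% of its counts in the 6.

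Genes of other blood cells were mostly missing from these wells. None of 10 neutrophil genes was detected in any well, which for each gene allows up to 3 counts in the whole series. Of 8 lymphocyte genes none was detected in the 6 wells (5 elsewhere), of 8 antigen-presentation genes 1 was (Cd74, 17 counts in G6), of 8 platelet genes 3, and of 5 red cell genes 2, both in D6. Endothelial genes summed to 1737 CPM in D6 and 710 CPM in D11, above every other well of the same mouse and label, and to at most 0.958 CPM in the other 4. Fibroblast genes (5 of 8 detected) stayed at or under 168 CPM. Mural genes (4 of 7 detected) summed to 101 to 2202 CPM. In G6, D4, C7 and D11 this was Acta2 alone, which was read in 225 wells. In B8 Acta2 gave 34.7% of 1144 CPM, and the rest was Rgs5 (394 CPM), Pdgfrb (227) and Kcnj8 (126), genes known from pericytes. D6 also held Rgs5, at 109 CPM. Among partners of the members, 4 of 12 were read in the 6 wells: the ligand Csf1 (37 counts) and the factor Irf8 (63) in G6, the kinase Syk, which acts below Tyrobp (126 counts in G6), and Cd47, the ligand of Sirpa, in D11 (48) and C7 (32). Of these Cd47, Syk and Csf1 were read widely, in 155, 79 and 50 wells, with 1.41%, 7.11% and 3.63% of their counts in the 6 wells, while Irf8 was found in 6 wells, with 64 of its 139 counts in the 6 described here. The complement proteases C1ra and C1s1, which complete the C1 complex, were at 0 in the 6 wells. The part of any of these genes in the members' counts was not tested.

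Over all wells, the features whose log2(CPM + 1) followed the mean of the members most closely were Mrc1 (Pearson r 0.823), Ctss (0.765) and Fcer1g (0.745), followed by Cd83, Dab2, Maf, Cd68, Stab1, Lyl1 and Rassf4 (0.590 to 0.475). The 11691 features compared had at least 10 counts in each of at least 5 wells, and their median r was 0.0191. Features short of this were not ranked, among them Adgre1, Cd14, Fcgr3 and C5ar1 of the macrophage list, each read in 3 wells, all among the 6. Of the 10 features ranked highest, 5 were on the list of other macrophage genes. All values rest on the same few wells and share their depth: without the 6 wells r was -0.04 for Mrc1, 0.127 for Ctss and 0.178 for Dab2, the highest of the 10.

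Low counts elsewhere were set against the index sequences. Outside the 6 wells, 17 of 228 wells had a count of a member other than Sirpa. Among wells that carried 1 of the 2 index sequences of any of the 6 wells, on any plate, it was 13 of 124 (10.5%), with 1 to 6 counts each (median 1). Among wells that carried neither it was 4 of 104 (3.85%), with 4 to 92 counts. All 10 wells with a single count carried such an index. Only 3 wells outside the 6 had 10 or more of these counts: E12 (92), G5 of M116 dim (plate GL9989-3), with 18 counts of Pf4, and H2 (11). The 6 wells were not themselves compared for shared index sequences, among them D11, where only C1qb reached 10 counts. The part of index exchange was not tested.

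Sirpa, the receptor for Cd47, was distributed in another way. It was detected in 49 wells, of which 4 were among the 6 (135 counts in D6, 119 in G6, 75 in B8 and 5 in D4), and in 42 wells it was the only member, with 1 to 107 counts (median 15). In homozygous bright wells it was detected in 9 of 21 (42.9%) and 7 of 59 (11.9%), and in homozygous dim wells in 7 of 18 (38.9%) and 13 of 50 (26%) for M25 and M116. In control wells it was detected in 2 of 24, at 1 and 2 counts, and in 0 of 9. M72 gave 4 of 27 wells labelled bright, 1 of them with 89 of the 99 counts, and 7 of 26 wells labelled dim, none above 3 counts. After thinning to 100000 counts, Sirpa was detected in 38.1% and 11.5% of homozygous bright wells, 38.9% and 22.9% of dim wells and no control well (0 of 20 and 0 of 8).

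As sums over wells, Sirpa stood at 12.7 and 5.09 CPM in bright wells, 21.6 and 17.2 CPM in dim wells and 0.153 and 0 CPM in control mice. It was the only member whose level did not rest on the 6 wells: without them the dim sums were 16.0 and 12 CPM. Leaving out the 3 bright wells low in CM markers gave 13.7 CPM for M25 bright. Homozygous dim wells held 991 counts against 3 in control wells, a ratio of 148 with a 95% counting interval of 50.5 to 719. The interval does not cover amplification or the spread between wells and mice. The 25 wells with 10 or more counts of Sirpa and no other member had CM markers at 56950 to 112428 CPM and at most 3 of the 32 other macrophage genes (median 0).

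**Figure D4:**
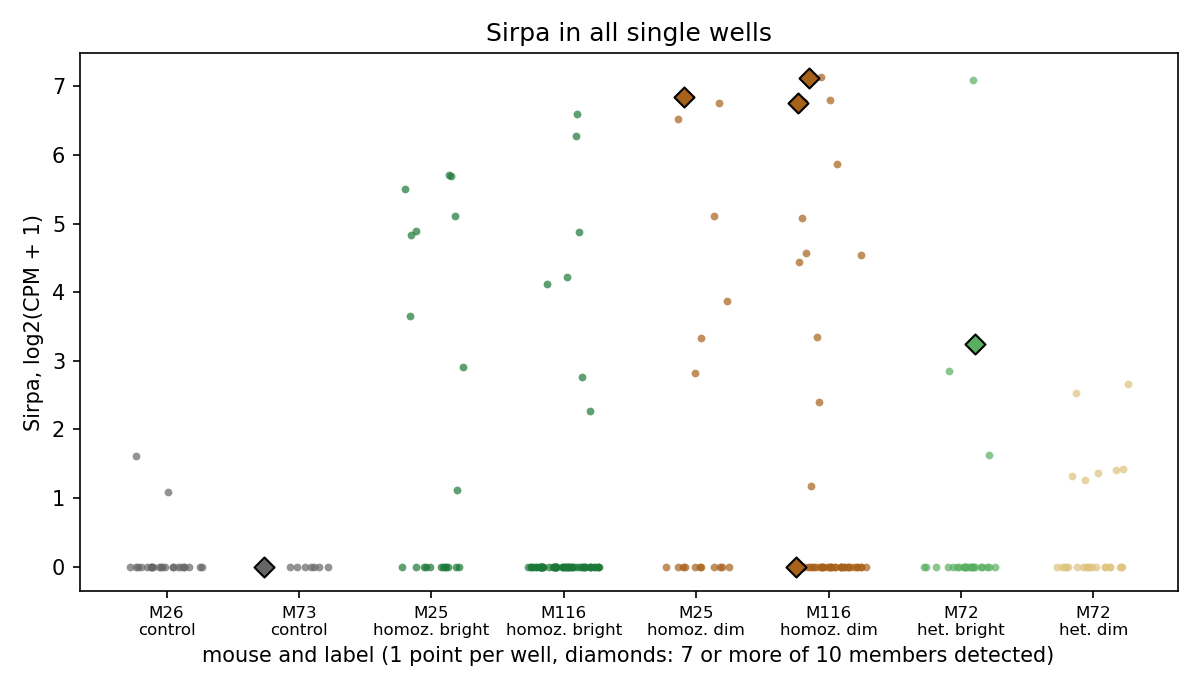
Sirpa as log2(CPM + 1) in each well by mouse and label. Unlike the other members it is spread over many homozygous bright and dim wells, most of them without other members, and it is absent from 2 of the 6 wells drawn as diamonds, C7 and D11.

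Summed per mouse, the 9 other members stood at 122 and 85.3 CPM in the dim wells of M25 and M116, at 0.264 and 0.0741 CPM in their bright wells and at 4.70 and 14.2 CPM in control M26 and M73. M72 gave 44.4 CPM in wells labelled bright and 0.665 CPM in wells labelled dim. The dim sums were above all others, a direction favoured by choosing the members for counts seen in dim wells. Of these dim sums, 99.96% and 99.05% lay in 1 and 3 wells. Without the 6 wells the dim sums were 0.0577 and 0.878 CPM, below control M26 at 4.70 CPM and above control M73 at 0 CPM, so the order of the groups was lost. All 92 counts of M26 lay in E12, however. Without all 8 wells with 3 or more members, a setting added after the values were seen, both control sums were at 0 CPM, below the dim sums, and the bright sums stayed at 0.264 and 0.0741 CPM, both above M25 dim. In bulk sums of this kind, fewer wells with the RNA and less RNA per well cannot be told apart, which is why wells are given singly.

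Homozygous dim wells were set against control wells with edgeR's quasi-likelihood test on the sums of 2 mice each. Of 12195 features tested, 0 were called at an adjusted p under 0.05 (0%), while 759 reached an unadjusted p below 0.05 and DESeq2 gave 55 calls (0.451%). All 10 members were tested and 0 called. DESeq2 called 4 of them, Lyz2, Csf1r, Sirpa and Fcrls. Both dim mice were above both control mice for 9 of 10 members, against 23.8% of all features, with Tyrobp the exception because of the 56 counts in E12. The median fitted log2 fold change was 4.26 over the members and 0.10 over all features. Fcrls was at 0 in control wells and at least 60.1-fold higher in dim wells against 3 counts over the control group. Csf1r had 589 counts in dim and 1 in control wells, a ratio of 264 with a counting interval of 47.2 to 10446. That interval covers counting error only, not amplification or the spread between wells and mice. None of the dim counts of Csf1r lay outside the 6 wells. C1qb had 730 against 44 counts (7.44-fold) and Tyrobp 138 against 56 (1.10-fold). With Fcrls at its bound the median log2 ratio of pooled CPM was 5.82. On the shared plate, C1qb stood at 15.5 CPM in M25 dim against 0.408 in M26, and in the other series at 12.9 CPM in M116 dim against 8.79 in M73. Since the members were chosen from levels in these wells, nothing is read from these counts, and no p-value is given for a member. Of the 32 other macrophage genes 16 were tested, with 0 called by edgeR and 1 by DESeq2. Without the 6 wells Sirpa was the only member with enough counts to be tested.

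Homozygous bright wells against dim wells of the same mice gave 0 calls of 13439 features (0%), with 554 features at an unadjusted p below 0.05, and DESeq2 gave 89 calls (0.662%), 9 of them members. All 10 members were lower in both bright sums than in both dim sums, against 16% of features. The members were chosen for their counts in dim wells, which fixes this direction, so nothing is read from these counts either. Bright wells held 0 counts of C1qa, Pf4, Fcrls, Tyrobp and Laptm5, 1 of C1qb, 1 of C1qc, 2 of Lyz2 and 4 of Csf1r, set against 138 to 1117 counts in dim wells. The exception in size was Sirpa, with 446 counts against 991. The median fitted log2 fold change of the members was -9.45, and -7.51 for pooled CPM with the 5 members at 0 set to 3 counts. Homozygous bright wells against control wells gave 2 calls of 12203 features (0.0164%), both transgene features, and only Lyz2 and Sirpa had enough counts to be tested. Neither was called. The comparisons share their dim, bright and control sums and are not independent of each other.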

How the data were processed

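Single CMs of 5 mice were sequenced by the authors (SMART-seq2, paired reads). Per the labels, reads were demultiplexed with bcl2fastq and aligned with STAR, whose gene counts per well the authors deposited as raw counts in 1 matrix of 55538 features, including human BAG3 and eGFP. The genome build, annotation and strand setting are not given in the sources used here, so overlapping and antisense genes cannot be separated. Members and gene lists were chosen with earlier results of these data known. A gene was detected at 1 count or more; CPM divides by the total of a well or sum. Wells were summed per mouse and label and compared with edgeR 4.0.16 (TMM, filter on low counts, Benjamini-Hochberg) in R 4.3.3, with DESeq2 1.42.0 as an alternative, tested on simulated data. Each group had 2 mice, and p-values measure the spread between their sums. Bright and dim sums came from the same mice, whose deviations had r = 0.0768 over 13439 genes. Genes named beside the members were the 8 other macrophage genes found in most wells (1 of them is not reported here), the genes holding most of a list's counts, and the 10 features most like the members. All columns matched a sample label. Depth per well was 487 to 1392253 counts, so a count of 0 says little in the 20 wells under 100000 counts. Exon lengths came from GENCODE vM21, which held 99.2% of the symbols.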

Additional observations from a re-analysis of the deposited data

Results flagged for a closer look

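In the homozygous mice the summed CPM of the 10 members was lower in bright than in dim wells, by 131 CPM in M25 and 97.3 CPM in M116, while in heterozygous M72 it was 50.1 CPM higher in the wells labelled bright. Opposite signs drew attention to this difference, which was not tested. The same held for 9 members, with wells labelled bright above those labelled dim in M72 by 11.3 CPM for C1qa, 5.84 for C1qb, 15.4 for C1qc, 4.98 for Lyz2, 3.75 for Pf4, 0.79 for Csf1r, 6.41 for Sirpa, 1.37 for Tyrobp and 0.29 for Laptm5. For all but Csf1r and Sirpa most of the M72 counts lay in the well D4, whose transgene count was 1 for human BAG3 and 0 for eGFP. In this mouse the transgene went against the labels, with a median of 5.62 CPM in wells labelled bright and 373 CPM in wells labelled dim. Exchanging the labels of M72 would give all these differences the sign seen in M25 and M116, and whether the labels were exchanged was not tested.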

How the results depend on the processing

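Counts of called features moved with the method. DESeq2 called 55 (dim against control), 106 (bright against control) and 89 (bright against dim), against 0, 2 and 0 with edgeR. Without a filter on low counts edgeR called 58, 163 and 217. The plate series as a block gave 12 for dim and 10 for bright against control. Mouse as a replicate block, the pairing given by the shared animal, gave 0 for bright against dim and changed no member's call. Leaving out 1 mouse gave 3 to 827 for dim against control, the highest without control M26 and the lowest without control M73, 0 to 41 for bright against control, and 0 to 74 for bright against dim, the highest without M116 bright. In these fits the lone mouse was assumed to vary like the other group. Library size in place of TMM, wells with at least 1000 features, and leaving out the highest member well of each sum or, chosen after seeing the data, the 6 wells kept 0, 2 and 0. Leaving out the 3 wells low in CM markers, also chosen later, gave 3 and 0 for the bright comparisons. With detection at 10 counts the control share with at least 3 members fell to 0%. Leaving out 1 mouse gave 4.17% to 11.1% for control, 5.56% to 6.00% for dim and 0% for bright. The fitted log2 fold change of Tyrobp, dim against control, was 0.75, turned to -0.18 without control M73 and was 8.80 without control M26. Other member values kept their direction, 187 with the same call and 27 newly called, 13 of these with DESeq2. The cause was not tested.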

Other observations

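Another dim well of M116, A6 of plate GL9989-2, held genes of a different immune kind and only 1 member, with 4 counts of Tyrobp. These genes were Cd53 at 168 counts, H2-Aa at 128, Ptprc, the pan-leukocyte antigen CD45, at 105, H2-Eb1 at 86, Cd74 at 65 and the B-cell receptor component Cd79a at 52. These genes were picked after their values were seen. The bright well B2 of M25, low in CM markers, held 104 counts of Coro1a and no member.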
